A study of Drosophila melanogaster with 24 samples.

Results

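The genes described here are the transcripts of the *Drosophila melanogaster* mitochondrial genome. They were chosen as every row of the deposited count table whose gene symbol starts with mt:, which gave 37 of the 17476 genes in the table: 13 mRNAs, 2 ribosomal RNAs (rRNAs) and 22 transfer RNAs (tRNAs). No expression value entered the choice. All 37 lie on the mitochondrial genome in the Release 6 annotation.

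RNA was sequenced from mesodermal cells that had been sorted for green fluorescence from embryos at stage 11 to early stage 12, with 4 biological replicates of each of 6 genotypes (24 libraries). In all 6 genotypes *twi-GAL4* drove *UAS-2EGFP*, so the sorted cells were those in which the *twist* driver was active, and GAL4 and GFP were present in every sample, wild-type included. In the *jumu* loss-of-function cells the deficiency *Df(3R)Exel6157* was homozygous, with *twi-GAL4* on one copy of that chromosome and *UAS-2EGFP* on the other, and the *CHES-1-like* loss-of-function cells were *Df(1)CHES-1-like1* with *twi-GAL4 UAS-2EGFP/+*. The double loss-of-function cells carried *Df(1)CHES-1-like1* together with the *jumu* deficiency chromosomes. In the overexpression genotypes *twi-GAL4 UAS-2EGFP* was combined with *UAS-jumu* or with *UAS-CHES-1-like*, and the wild-type cells were *twi-GAL4 UAS-2EGFP/+*. Each deficiency can take neighbouring genes with its target, and the GAL4 driver raises a transgene above its usual level in all Twist-expressing cells. Both *jumu* and *CHES-1-like* encode forkhead transcription factors that act in the nucleus. Mitochondria come from the mother, so the maternal stock of a cross and the genotype of the sorted cells cannot be told apart for mitochondrial transcripts.

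Animal mitochondrial DNA is a small circle that is read from both strands into long precursor RNAs, which are cut into mRNAs and rRNAs, in most places at the tRNAs that lie between them. The mRNAs encode core subunits of respiratory complexes I, III and IV and of the ATP synthase (complex V), and the rRNAs form the mitochondrial ribosome. All other subunits, and the polymerase and processing enzymes of the mitochondrion, are encoded in the nucleus and imported. Levels of the individual mRNAs therefore depend on processing and stability as well as on transcription.

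Total counts ranged from 15197022 to 72519855 per library. Both targeted genes were lower in their loss-of-function genotypes and higher when overexpressed, but *jumu* counts did not fall to near 0. *jumu* averaged 29.9 ± 1.94 CPM (counts scaled to a library of 1e+06) in *jumu* loss-of-function and 21.9 ± 1.87 CPM in double loss-of-function, against 122.3 ± 3.5 CPM in wild-type, and reached 676.1 ± 32.4 CPM in *jumu* overexpression (SD, n = 4 each). The study's methods describe *Df(3R)Exel6157* as removing the whole of *jumu*, so the counts left in both genotypes go against a complete absence of the gene's RNA, and their source was not tested. *CHES-1-like* averaged 1.14 ± 0.487 CPM in its loss-of-function and 1.2 ± 1.05 CPM in double loss-of-function, against 155.9 ± 3.41 CPM in wild-type, and 1532 ± 159.6 CPM when overexpressed. All 9 mesoderm markers were detected, with summed levels of 1123 to 1731 CPM per library. Neural, ectoderm, hemocyte and germ cell markers, listed apart from the mesoderm markers, were also present. The 7 neural markers summed to 285.02 to 567.4 CPM and the 4 ectoderm markers to 209.997 to 347.1 CPM. The 5 hemocyte markers summed to 584.4 to 1373.7 CPM and the 4 germ cell markers to 9.42 to 22.2 CPM. Whether the hemocyte signal came from mesodermal cells was not tested. Several of these sums lay wholly outside the wild-type range. Hemocyte markers summed to 924.03 to 1040 CPM in *jumu* overexpression, 584.4 to 693 CPM in *CHES-1-like* overexpression and 905.3 to 1033 CPM in double loss-of-function, all below wild-type (1084 to 1131 CPM), and to 1288 to 1344 CPM in *jumu* loss-of-function and 1306 to 1374 CPM in the loss of *CHES-1-like*, all above it. Ectoderm markers were below wild-type (333.9 to 347.1 CPM) in every library of the 3 loss-of-function genotypes (249.04 to 322.8 CPM) and of *CHES-1-like* overexpression (209.997 to 260.2 CPM). Germ cell markers were above wild-type (13.5 to 15.9 CPM) in *jumu* overexpression (17.4 to 22.2 CPM) and the loss of *CHES-1-like* (16.7 to 20.3 CPM), and below it in *jumu* loss-of-function (9.42 to 10.8 CPM) and *CHES-1-like* overexpression (10.6 to 12.4 CPM). Neural markers were below wild-type (356.9 to 390.4 CPM) in the loss of *CHES-1-like* (285.02 to 331.8 CPM). The part of these cells in the mitochondrial values was not tested.

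Mitochondrial transcripts made up 7.15% of all counts on average (4.17 to 12.5% over the 24 libraries), and 1 gene supplied most of them. *mt:lrRNA* (FBgn0013686), the large-subunit rRNA, at 12735 to 14058 on the minus strand of the mitochondrial genome, held 68.4% of all mitochondrial counts and between 2.71 and 7.98% of each library. Per length it averaged 36835 CPM per kb. The small-subunit rRNA *mt:srRNA*, at 14131 to 14916 on the same strand, averaged 922.4 CPM per kb, although the ribosome holds both in equal number. The deposited counts come from total RNA libraries, and what treatment removed rRNA from them is not given in the sources used here.

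Among the mRNAs, levels per length were highest in complex IV and lower in complex I, and the subunits of complex V stood far apart. *mt:CoI* and *mt:CoIII*, catalytic-core subunits of cytochrome c oxidase (complex IV), averaged 6456 and 6132 CPM per kb, and *mt:CoII* of the same complex 2465. *mt:Cyt-b*, the only mitochondrially encoded subunit of complex III, averaged 2058 CPM per kb, and *mt:ATPase6*, part of the proton channel of ATP synthase, 1543. The complex I subunits were lower: *mt:ND1* averaged 554.3, *mt:ND4* 522.5, *mt:ND5* 429.1, *mt:ND3* 358.3, *mt:ND2* 70.1, *mt:ND4L* 68.5 and *mt:ND6* 10.2 CPM per kb. *mt:ATPase8*, the small accessory subunit of ATP synthase, averaged 12.8 CPM per kb. Neighbours in this order overlapped widely between libraries, as *mt:CoI* with *mt:CoIII* and *mt:ND1* with *mt:ND4* and *mt:ND5*, whereas *mt:lrRNA* stood above every mRNA in each library. Neighbouring genes differed widely in level. *mt:ND2* precedes *mt:CoI* on the same strand with 3 tRNA genes between them, and *mt:ATPase8* precedes *mt:ATPase6* directly, sharing 7 bases with it. How reads that cover shared bases or span 2 genes were counted is not given in the sources used here. It bears on *mt:ATPase8*, *mt:ATPase6*, *mt:CoIII*, *mt:ND4* and *mt:ND4L*, which share 1 to 7 bases with a neighbour. It also bears on genes that abut a neighbour without sharing bases, tRNA genes among them.

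**Figure D1:**
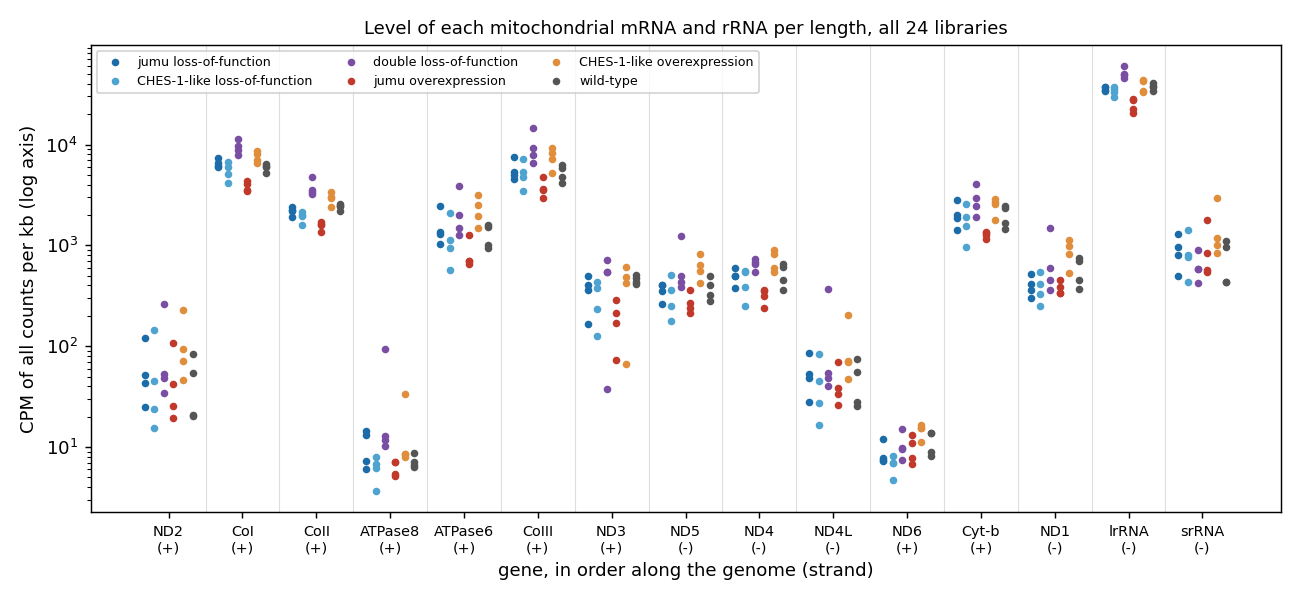
CPM of all counts per kb of gene length (log axis) for the 13 mRNAs and 2 rRNAs in their order along the mitochondrial genome, with the strand in parentheses; each point is 1 library, coloured by genotype. *mt:lrRNA* averaged 36835 CPM per kb and *mt:ND6* 10.2, and *mt:ND3* varied 19-fold between libraries, against 2.94-fold for *mt:lrRNA*.

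The tRNAs contributed 0.00104 to 0.00822% of a library. The 5 with the highest mean were *mt:tRNA:Y* (tyrosine; 15.8 CPM), *mt:tRNA:C* (cysteine; 5.89 CPM), *mt:tRNA:R* (arginine; 3.87 CPM), *mt:tRNA:K* (lysine; 3.79 CPM) and *mt:tRNA:I* (isoleucine; 2.72 CPM). Several others were near the limit of detection: *mt:tRNA:F* had 0 counts in 22 libraries, *mt:tRNA:S:UCN* in 21, and *mt:tRNA:E* and *mt:tRNA:T* in 18 each. A count of 0 allows a level of up to 0.0414 CPM in the deepest library and 0.197 CPM in the shallowest, counting error only. *mt:tRNA:C* shares 8 bases with *mt:tRNA:W* on the opposite strand. Whether the counts of tRNA genes come from mature tRNAs or from precursor RNAs was not tested.

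In the make-up of their mitochondrial mRNA 5 libraries stood apart: replicate 1 of *jumu* loss-of-function, of *CHES-1-like* loss-of-function, of *jumu* overexpression and of *CHES-1-like* overexpression, and replicate 2 of double loss-of-function. In these 5, *mt:ND3* (complex I) made up 0.0301 to 0.23% of mitochondrial mRNA counts, against 0.497 to 0.89% in the other 19. *mt:ND2* moved the other way, with 0.481 to 0.811% in the 5 libraries and 0.108 to 0.384% in the others. Against the mean of the other replicates of its own genotype, every 1 of the 5 was also higher in *mt:ND4L* (log2 ratios of 0.92 to 3.05), *mt:ATPase6* (0.96 to 1.47), *mt:srRNA* (0.73 to 2), *mt:tRNA:Y* (1.27 to 2.10) and *mt:tRNA:C* (1.46 to 2.39), and lower in *mt:tRNA:K* (-1.21 to -0.09). The difference was not confined to mitochondrial genes. Each had the lowest share of small nucleolar RNA counts of its genotype (0.605 to 0.899%, against 0.925 to 1.56% in the other 19), and each lay at the extreme of its genotype on the axis that held 57.7% of the within-genotype variance of 7174 nuclear genes. No wild-type library was among the 5, so all 5 fall on the same side of their comparisons. These libraries were set apart after their values were seen, and the comparisons of shares, the counts of members called and the counts of nuclear respiratory-complex subunits are also given without them; since *mt:ND3* chose them, its own level without them is not independent of the choice.

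**Figure D2:**
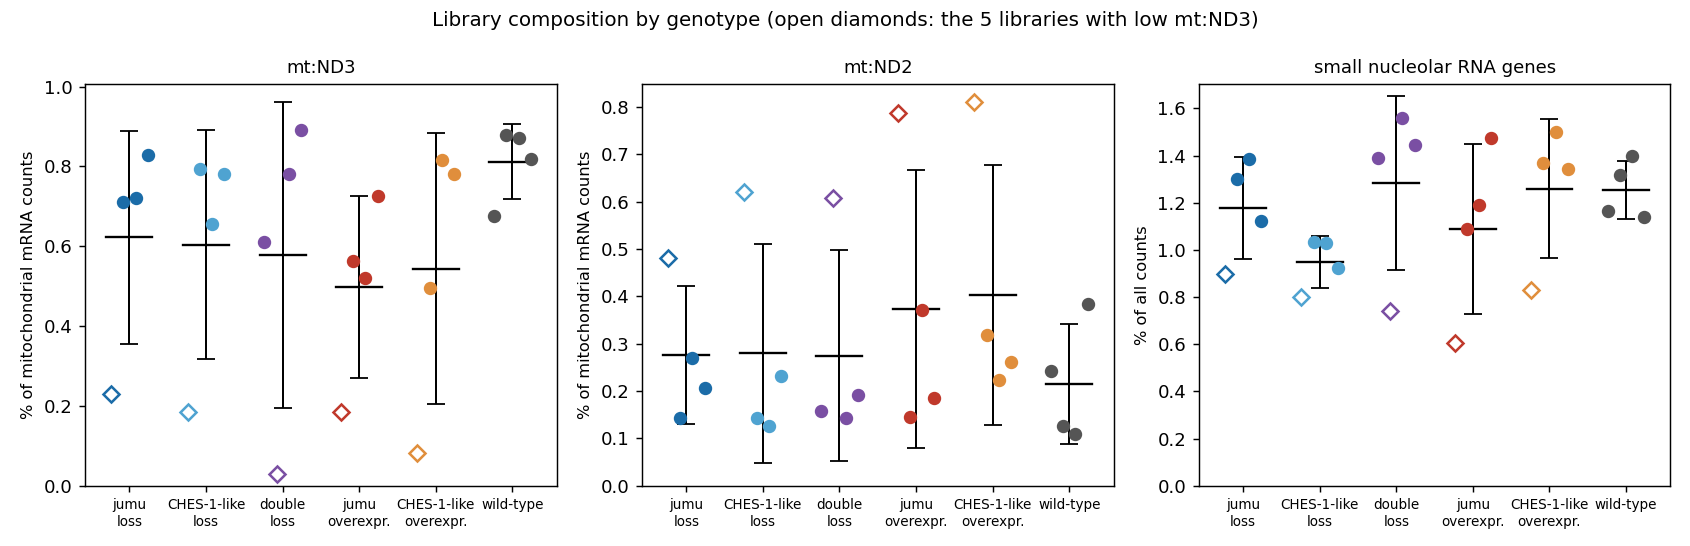
Each point is 1 library, with the mean (line) and SD (bars) of 4 replicates per genotype: *mt:ND3* and *mt:ND2* as a percent of mitochondrial mRNA counts, and small nucleolar RNA genes as a percent of all counts. The 5 open diamonds, low in *mt:ND3* (0.0301 to 0.23%) and high in *mt:ND2* (0.481 to 0.811%), also have the lowest small nucleolar RNA share of their genotype.

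The share of the library taken by mitochondrial counts was compared first, since it asks whether mesoderm of each genotype held more or less mitochondrial RNA relative to everything else counted. In bulk samples, fewer mitochondria per cell, less RNA per mitochondrion and fewer cells rich in mitochondria cannot be told apart. The *jumu* overexpression libraries had 4.27, 5.2, 4.17 and 5.13%, against 7.42, 6.17, 6.86 and 7.68% in wild-type. All 4 lay below every wild-type library, and the ratio of means was 0.667. The double loss-of-function libraries had 9.69, 12.5, 8.51 and 9.52%, all above wild-type, with a ratio of 1.43. The share was 6.39 to 7.2% in *jumu* loss-of-function and 5.22 to 7.18% in the loss of *CHES-1-like*, and 6.59 to 8.69% when *CHES-1-like* was overexpressed, and each of these overlapped wild-type. By two-sided exact permutation tests of 4 against 4 libraries, p was 0.0286 for *jumu* overexpression and for double loss-of-function, the smallest value the 70 divisions allow, and 0.143 for each after Benjamini-Hochberg adjustment over 15 tests of shares. No share passed an adjusted p of 0.05. Without the library low in *mt:ND3*, the difference from wild-type was -2.20 percentage points in *jumu* overexpression (-2.34 with it) and 2.21 in double loss-of-function (3.02 with it), and -0.22 in *jumu* loss-of-function, -0.93 in the loss of *CHES-1-like* and 0.93 in *CHES-1-like* overexpression (-0.12, -0.66 and 0.84 with it). The 5 comparisons share the wild-type libraries.

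What the mitochondrial counts are set against differed between genotypes. Nuclear protein-coding genes held 57.4% of counts in double loss-of-function, 32.04% in the loss of *CHES-1-like* and 40.8% in *jumu* loss-of-function, against 44.9% in wild-type, and rows annotated or named as nuclear rRNA held 12.2, 26.3 and 19% in these genotypes, against 16.61% in wild-type. The 47 rows with no annotated class held 11.4% in double loss-of-function, 29.4% in the loss of *CHES-1-like* and 26.2% in *jumu* loss-of-function, against 23.6% in wild-type, without overlap in any of the 3. In *jumu* overexpression these rows held 18.96 to 33.02%. What these rows are was not resolved, and every share of the library depends on them. Per 100 counts of nuclear protein-coding genes, *jumu* overexpression remained below wild-type, with 12.6, 12.4, 7.39 and 10.4 mitochondrial counts, against 17.4, 13.2, 14.74 and 17.6. On this scale the double loss-of-function libraries, at 14.6 to 21.8, overlapped wild-type. The *CHES-1-like* loss-of-function libraries, with 20.2, 20.5, 17.8 and 20.9, lay above it. For all mitochondrial counts together, of which *mt:lrRNA* held most, *jumu* overexpression was thus lower on both scales, whereas the double and *CHES-1-like* loss-of-function values depended on the scale. For the 13 mRNAs alone the *jumu* overexpression libraries had 4.17, 3.22, 2.07 and 2.83 counts per 100 nuclear protein-coding counts, against 5.38, 3.53, 4.10 and 5.06 in wild-type. Replicate 1 reached into the wild-type range there (two-sided exact permutation test, p = 0.0857, not adjusted), and every other genotype also overlapped wild-type on this measure.

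**Figure D3:**
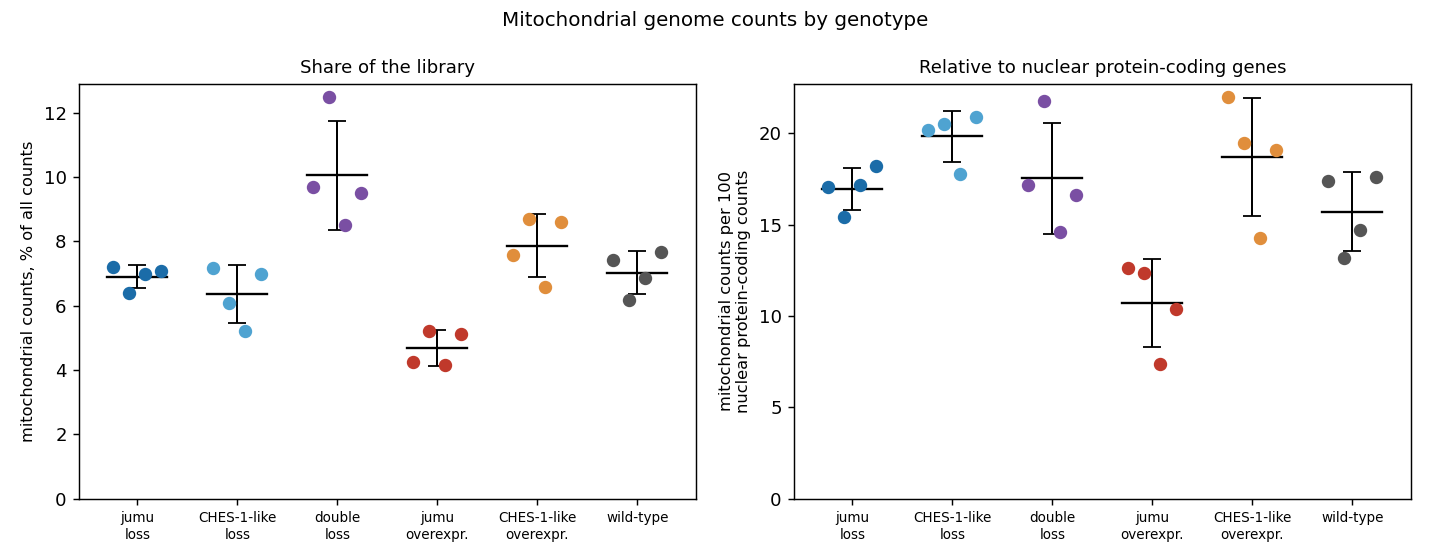
Mitochondrial counts as a percent of all counts (left) and per 100 nuclear protein-coding counts (right); points are libraries, lines and bars the mean and SD of 4. The *jumu* overexpression libraries are below every wild-type library on both axes (4.17 to 5.2%, against 6.17 to 7.68%), whereas double loss-of-function is above wild-type only on the left.

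Single genes were then compared on TMM-scaled counts with edgeR's quasi-likelihood test. A gene was called at a false discovery rate (FDR) below 0.1, adjusted over all genes of the table, with a log2 fold change beyond 0.5 in either direction. Per-library values below are CPM scaled with TMM factors over all 24 libraries. Counts at an unadjusted p below 0.05, and counts from fits under other settings or without a library, have no share of all genes beside them. They show how far the calls depended on the fit and are not read as results about the members. In each comparison 28 or 29 of the 37 members passed the filter on low expression, and the members that did not were tRNAs.

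In *jumu* overexpression 7 of the 28 members tested were called, all lower (25%), against 7.68% of the 12234 genes tested that were called lower and 7.99% that were called higher. The called genes were *mt:ND3* and *mt:ND4* of complex I, *mt:Cyt-b* of complex III, *mt:CoI* and *mt:CoII* of complex IV, *mt:lrRNA* and *mt:tRNA:K*. No gene of complex V was called. Of the 13 mRNAs, 12 lay below 0 on the log2 fold change scale; the median was -0.53 over the 13 and 0.01 over all genes tested. In 4 members the groups did not overlap, all 4 lower; 13.7% of all genes tested were wholly below wild-type and 14.9% wholly above.

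Among the called members the change was largest in *mt:tRNA:K* and *mt:ND3*. *mt:tRNA:K*, which lies at 3768 to 3838 between *mt:CoII* and *mt:tRNA:D*, had 1.23, 1.43, 1.06 and 1.52 CPM in *jumu* overexpression, against 3.94, 3.73, 4.62 and 5.74 CPM in wild-type, and its log2 fold change was -1.75 ± 0.18 (SE; FDR = 6.97e-06). Every overexpression library was below every wild-type library. The *mt:tRNA:K* gene starts at the base after *mt:CoII* ends, and how reads spanning both were counted is not given. *mt:ND3*, at 5608 to 5961, had 33, 75.8, 45.5 and 84.8 CPM, against 154.5, 132.97, 152.9 and 176.8 CPM, a log2 fold change of -1.35 ± 0.21 (FDR = 0.000302), again without overlap.

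*mt:CoI*, at 1474 to 3009, fell by 0.62 ± 0.15 on the log2 scale (FDR = 0.00975), with 6728, 6217, 4036 and 5651 CPM in *jumu* overexpression and 9923, 7294, 8496 and 9198 CPM in wild-type. *mt:lrRNA* fell by 0.58 ± 0.17 (FDR = 0.0245), with 34315, 37729.5, 22129.6 and 30925 CPM against 50248, 40924, 45140.4 and 52430.1 CPM. Neither overlapped wild-type. *mt:ND4* fell by 0.74 ± 0.17 (FDR = 0.00735), *mt:CoII* by 0.58 ± 0.17 (FDR = 0.0275) and *mt:Cyt-b* by 0.6 ± 0.21 (FDR = 0.0625). In these genes 1 overexpression library reached into the wild-type range: for *mt:ND4* it was replicate 2 with 468.9 CPM and for *mt:CoII* and *mt:Cyt-b* replicate 1 with 1475 and 1961 CPM.

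Several members not called in *jumu* overexpression were high in its replicate 1. *mt:ATPase6* had 1071 CPM there and 473.8, 356.8 and 367.8 CPM in the other replicates, against 1078, 580.3, 624.4 and 1011 CPM in wild-type (log2 fold change -0.53 ± 0.3). *mt:srRNA* had 1794 CPM there and 334.9 to 655.8 CPM in the others, against 309.2 to 855.9 CPM in wild-type. Without replicate 1, the library of this genotype low in *mt:ND3*, 17 members were called, all lower, among them *mt:ATPase6* (-1.05, FDR = 0.00016), *mt:CoIII* (-0.79, FDR = 0.000871), *mt:ND5* (-0.80, FDR = 0.000626) and *mt:ND1* (-0.73, FDR = 0.0224). The share of all genes called in that fit is not given. Its median log2 fold change was -0.79 over the mRNAs and 0.00018 over all genes tested. Without replicate 3, which had the lowest *mt:CoI* and *mt:lrRNA*, 3 members were called. *mt:ND3*, *mt:ND4* and *mt:tRNA:K* were called under all 17 alternatives run, and no alternative called a member higher in this genotype. Leaving out replicate 1 and leaving out the library low in *mt:ND3* were the same fit here, counted under both names.

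**Figure D4:**
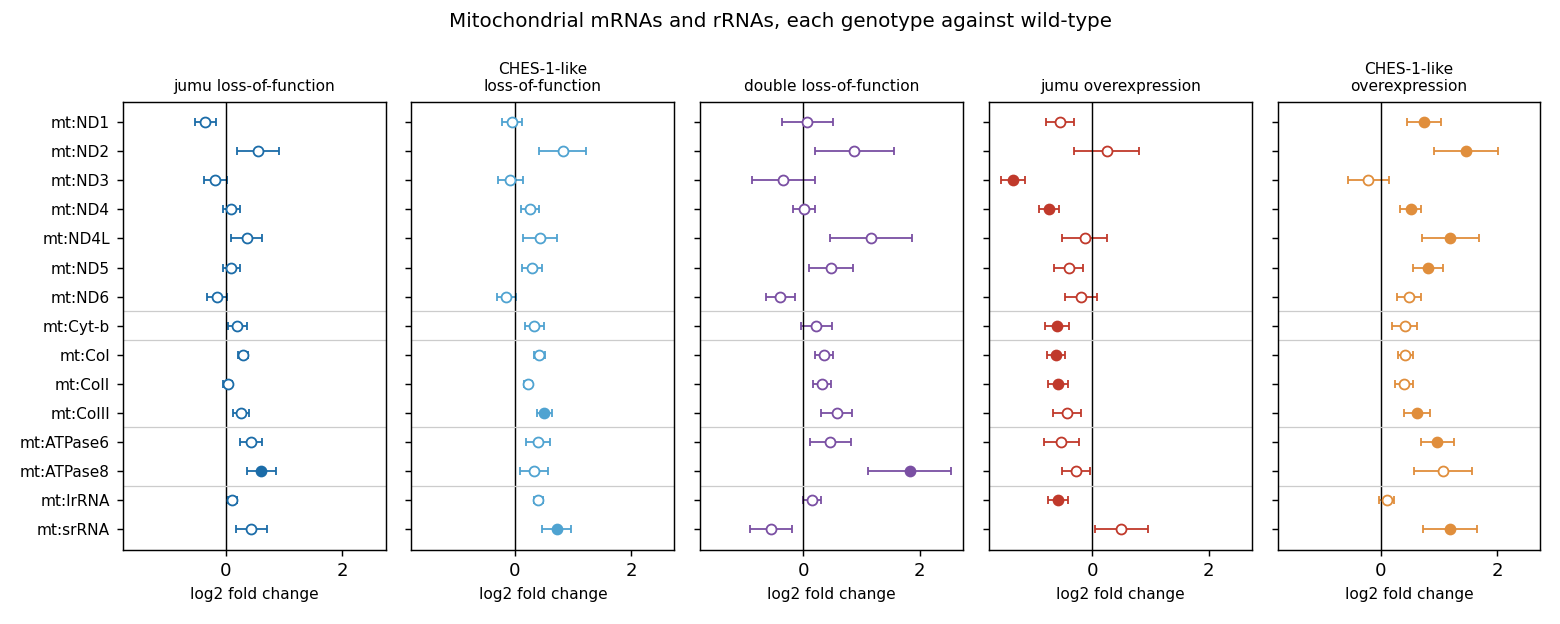
Log2 fold change of each mRNA and rRNA against wild-type in 5 genotypes (points) with the SE of the fit (bars); filled points were called at an FDR below 0.1 and a log2 fold change beyond 0.5. In *jumu* overexpression 12 of the 13 mRNAs lie below 0, and in *CHES-1-like* overexpression 12 of the 13 lie above 0.

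In *CHES-1-like* overexpression 8 of 29 members were called, all higher: *mt:ND1*, *mt:ND2*, *mt:ND4*, *mt:ND4L* and *mt:ND5* of complex I, *mt:CoIII*, *mt:ATPase6* and *mt:srRNA*. This is 27.6% of those tested, against 16.7% of all genes called higher and 16.5% called lower. The median log2 fold change of the 13 mRNAs was 0.62, against 0.01 over all genes tested. No member had groups that did not overlap, against 21.8% of all genes wholly above wild-type and 23.4% wholly below. *mt:ATPase6* had 2635, 1575, 915.9 and 1217 CPM in *CHES-1-like* overexpression, against 1078, 580.3, 624.4 and 1011 CPM in wild-type (log2 fold change 0.97 ± 0.28, FDR = 0.0147). Replicate 1, a library low in *mt:ND3*, was the highest, and replicate 3 lay within the wild-type range.

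Among the members called in this genotype the largest fold change was that of *mt:ND2*, and it rested on the same library: 288.2, 88.9, 43.1 and 67.1 CPM, against 55.5, 19.2, 19 and 82.7 CPM in wild-type (log2 fold change 1.46 ± 0.55, FDR = 0.0561). *mt:tRNA:Q*, which was not called, had a larger one (2.04 ± 0.90, FDR = 0.105), with 2.53 CPM in that library and 0.15 to 0.499 CPM in the others, against 0 to 0.282 CPM in wild-type. *mt:ND4L* had 73.3 CPM in replicate 1 and 12.6 to 19.1 CPM in the others, against 6.73 to 21.4 CPM in wild-type (1.19 ± 0.49, FDR = 0.0781). *mt:srRNA* had 2809 CPM there and 595.6 to 859.3 CPM in the others, against 309.2 to 855.9 CPM (1.19 ± 0.46, FDR = 0.061). The wild-type libraries themselves differed in these genes: replicates 1 and 4 were higher than replicates 2 and 3 in *mt:ND2*, *mt:ND4L*, *mt:ATPase6* and *mt:srRNA*. Without replicate 1 of *CHES-1-like* overexpression, 2 members were called, *mt:ATPase6* (0.58, FDR = 0.00424) and *mt:ND4* (0.51, FDR = 0.00752). The count was also 2 without wild-type replicate 2 or 3, and it was 13 without wild-type replicate 4 and 16 without *CHES-1-like* overexpression replicate 3. *mt:ATPase6* was called under all 17 alternatives, among which the fit without replicate 1 of this genotype was again counted under both names.

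*mt:lrRNA* did not follow the mRNAs in this genotype (log2 fold change 0.10 ± 0.13, FDR = 0.65). The rRNAs accordingly made up a smaller share of mitochondrial counts: 61.7, 65.6, 67.7 and 67.6% in *CHES-1-like* overexpression, against 69, 73.1, 72.1 and 71.1% in wild-type. The groups did not overlap (two-sided exact permutation test, p = 0.0286, adjusted p = 0.143 over 15 tests). The difference was -5.73 percentage points, and -4.41 without replicate 1, the library low in *mt:ND3* (exact p = 0.0571). In the other 4 genotypes the rRNA share overlapped wild-type, with means of 68.2 to 71.6%; without the library low in *mt:ND3* the differences were -0.0921 in *jumu* loss-of-function, 1.90 in the loss of *CHES-1-like*, -1.86 in double loss-of-function and 1.53 in *jumu* overexpression. The share of mitochondrial mRNA counts from the 4 protein genes on the minus strand (*mt:ND1*, *mt:ND4*, *mt:ND4L*, *mt:ND5*) overlapped wild-type in every genotype, with means of 7.88% in *jumu* loss-of-function, 8.09% in *CHES-1-like* loss-of-function, 8.08% in double loss-of-function, 9.48% in *jumu* overexpression and 10.5% in *CHES-1-like* overexpression, against 9.24% in wild-type (adjusted p of 0.429 or more). Without the libraries low in *mt:ND3* the differences were -1.19, -1.43, -1.85, 0.25 and 1.01 percentage points in the same order of genotypes.

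In *CHES-1-like* loss-of-function 6 of 29 members were called, all higher (20.7%, against 6.24% of all genes called higher and 9.19% called lower): *mt:CoIII*, *mt:srRNA*, *mt:tRNA:A*, *mt:tRNA:C*, *mt:tRNA:Q* and *mt:tRNA:Y*. *mt:CoIII* had 7184, 5554, 4071 and 5483 CPM, against 4928, 3011, 3435 and 4485 CPM in wild-type (log2 fold change 0.51 ± 0.13, FDR = 0.00523). Replicates 1, 2 and 4 were above wild-type and replicate 3 was within its range. *mt:tRNA:Q* (glutamine) had 1.51 CPM in replicate 1 and 0 to 0.203 CPM in the others, against 0 to 0.283 CPM in wild-type. The other called tRNAs were likewise highest in replicate 1, with 42.6 CPM for *mt:tRNA:Y*, 16.8 CPM for *mt:tRNA:C* and 2.25 CPM for *mt:tRNA:A* (alanine). Without that replicate, which was low in *mt:ND3*, 0 members were called in edgeR (6 at an unadjusted p below 0.05), and the log2 fold change of *mt:tRNA:Q* was -0.22. The wild-type libraries weighed as much: 0 members were called without wild-type replicate 2, 1 without replicate 3 and 12 without replicate 4, and 11 were called without *CHES-1-like* loss-of-function replicate 3. DESeq2 called 1 member.

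The most even difference in *CHES-1-like* loss-of-function was that of *mt:lrRNA*, which stayed below the fold change set for a call. It had 58861, 64457, 59175 and 64962 CPM, against 50248, 40924, 45140.4 and 52430.1 CPM in wild-type, a log2 fold change of 0.41 ± 0.08 (FDR = 0.000624). It was the only member of the 29 whose groups did not overlap in this comparison, where 14.9% of all genes tested lay wholly above wild-type and 15.4% wholly below. *mt:CoI* was similar, at 0.42 ± 0.09 (FDR = 0.000914). As a share of all counts *mt:lrRNA* averaged 4.47% in this genotype, against 4.95% in wild-type, so the direction depended on the scale; with library totals in place of TMM factors the median gene tested lay at -0.56 on the log2 scale.

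In *jumu* loss-of-function 1 of 28 members was called, *mt:ATPase8*, against 9.83% of all genes called higher and 9.54% called lower, and no member had groups that did not overlap (17.7% of all genes lay wholly above wild-type and 18.8% wholly below). It had 1.02, 2.48, 2.28 and 1.3 CPM, against 1.08, 0.943, 1.05 and 1.37 CPM in wild-type (log2 fold change 0.61 ± 0.25, FDR = 0.0791). Replicates 2 and 3 were above wild-type and the others within its range. *mt:ATPase8* was not called without *jumu* loss-of-function replicate 2 or 3 or without wild-type replicate 1, 2 or 3. Without *jumu* loss-of-function replicate 3 or wild-type replicate 3, 0 members were called (4 and 3 at an unadjusted p below 0.05 in edgeR). Without wild-type replicate 2 the single call was *mt:ND1*, which was lower (log2 fold change -0.53), and it was also the single call with library totals in place of TMM factors (-0.51). Without wild-type replicates 1 and 4, 4 and 5 members were called, all higher. Without replicate 1, the library of this genotype low in *mt:ND3*, *mt:ATPase8* was the single call (0.81, FDR = 0.00707). *mt:CoI* was higher by less than the fold change set for a call, with 11771, 9578, 9976 and 11178 CPM, against 9923, 7294, 8496 and 9198 CPM (0.30 ± 0.08, FDR = 0.00657). *mt:ND1* had the lowest log2 fold change of the mRNAs, -0.35 ± 0.18 (FDR = 0.165). A fit with the replicate number as a block called 4 members, *mt:ATPase8*, *mt:ND2*, *mt:srRNA* and *mt:tRNA:L:UUR*. In that fit the SE of *mt:ND2* was 0.05, against 0.37 without the block. Its levels were 127.7, 27.1, 56.7 and 48.8 CPM, against 19 to 82.7 CPM in wild-type. The same-numbered pairs did not all differ in 1 direction: replicate 4 was below wild-type replicate 4 (82.7 CPM), and the other replicates were above theirs. The SE of 0.05, derived from the F statistic, does not reflect that spread, so the calls of the blocked fit are not relied on.

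In double loss-of-function 1 of 28 members was called, again *mt:ATPase8* (11.9% of all genes were called higher and 12.8% lower), and 1 library carried it. No member had groups that did not overlap, against 18.1% of all genes wholly above wild-type and 19.1% wholly below. It had 1.27, 12.8, 1.53 and 1.4 CPM, against 0.943 to 1.37 CPM in wild-type (log2 fold change 1.83 ± 0.71, FDR = 0.0908). Replicate 2, the library lowest in *mt:ND3* of all 24, was also the highest of its genotype in every mRNA but *mt:ND3* and *mt:ND4*, as with *mt:ND4L* at 89 CPM (8.44 to 11.7 CPM in the others) and *mt:ND1* at 1168 CPM (246 to 421.6 CPM). Without it 3 members were called, all lower, *mt:srRNA* (-0.86, FDR = 0.00125), *mt:ND1* (-0.66, FDR = 0.00166) and *mt:ND6* (-0.64, FDR = 0.000965). Without any 1 of the wild-type libraries 0 members were called in edgeR (0 to 2 at an unadjusted p below 0.05), and DESeq2 called 0. When library totals replaced the TMM factors, 9 members were called higher in this genotype, and the median gene tested then lay at 0.34 on the log2 scale.

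The interaction asks whether the double loss differed from the sum of the single losses on the log2 scale. Of 28 members tested, 1 was called, *mt:srRNA*, against 6.23% of all genes called lower and 6% called higher. It had 344.1, 593.2, 243.5 and 339.9 CPM in double loss-of-function, against 412.8 to 1068 CPM in *jumu* loss-of-function, 517.2 to 1413 CPM in the loss of *CHES-1-like* and 309.2 to 855.9 CPM in wild-type. Both single losses were higher on average than wild-type and the double loss was lower (0.44 ± 0.26, 0.73 ± 0.25 and -0.55 ± 0.36), which gave an interaction of -1.72 ± 0.5 (FDR = 0.0345). The libraries low in *mt:ND3* in this fit were replicate 1 of each single loss and replicate 2 of the double loss. Without them the interaction of *mt:srRNA* was -1.52 (FDR = 0.000344), and *mt:lrRNA* was called as well (-0.58, FDR = 1.94e-06). With replicate 1 or replicate 3 of all 4 genotypes left out, 0 members were called in edgeR (2 and 1 at an unadjusted p below 0.05), and 6 were called without replicate 2. When library totals replaced TMM factors, 11 members were called, all higher, and the median gene tested lay at 1.08.

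The nuclear genes whose products work beside the mitochondrial transcripts were counted from lists of 69 nuclear subunits of the respiratory complexes and ATP synthase, of which 66 were tested. In *CHES-1-like* overexpression 43 of the 66 rose (65.2%, against 16.7% of all genes called higher) and none fell, with a median log2 fold change of 0.59. Complex I contributed 21 of its 33 subunits tested and complex V 11 of its 13. Among those most changed in their complex were *UQCR-C1* (1.15 ± 0.1, FDR = 9.00e-07) and *Cyt-c1* (1.14 ± 0.06, FDR = 1.24e-08) of complex III, *ND-24* (1.1 ± 0.11, FDR = 3.21e-06) and *ND-18* (1.08 ± 0.13, FDR = 1.88e-05) of complex I, and *blw*, the alpha subunit of ATP synthase (0.97 ± 0.13, FDR = 3.81e-05). The count was 34 to 47 with any 1 library left out, and 47 without replicate 1, the library that carried most of the mitochondrial calls in this genotype.

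The machinery that transcribes and processes mitochondrial RNA rose in *CHES-1-like* overexpression too: 13 of 16 genes tested were called higher (81.25%, against 16.7% of all genes), and none lower, with a median of 0.77. *Suv3*, an RNA helicase of the mitochondrial degradosome, rose by 1.44 ± 0.07 (FDR = 3.15e-09), and *RNaseZ*, which cuts the 3′ ends of tRNAs in nucleus and mitochondria, by 1.25 ± 0.06 (FDR = 3.15e-09). Of the 5 genes tested for maintenance of mitochondrial DNA 4 rose (80%), among them *EndoG* (0.90 ± 0.14, FDR = 0.000195) and the protease *Lon* (0.65 ± 0.06, FDR = 1.09e-06). Of the 13 genes on the list for biogenesis and mass 7 rose (53.8%, again against 16.7% of all genes), with *Tom40*, the channel of the outer-membrane import complex, at 0.92 ± 0.07 (FDR = 2.46e-07) and the chaperonin *Hsp60A* at 0.78 ± 0.14 (FDR = 0.000639).

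In *jumu* overexpression, where mitochondrial transcripts were lower, 0 of the 66 nuclear subunits were called by edgeR or by DESeq2, with a median log2 fold change of 0.07 and 15 at an unadjusted p below 0.05; of all genes tested 7.99% were called higher and 7.68% lower. Without replicate 1 of that genotype, its library low in *mt:ND3*, 2 were called. On the lists for RNA processing, DNA maintenance and biogenesis 0 of 16, 0 of 5 and 0 of 13 genes tested were called by edgeR (2, 2 and 5 at an unadjusted p below 0.05). In *jumu* loss-of-function 1 of 66 subunits was called (9.83% of all genes were called higher and 9.54% lower), *ND-B8*, named here after its value was seen, with a mean of only 0.304 CPM (-1.43 ± 0.43, FDR = 0.0154). *mtDNA-helicase*, the replicative helicase of mitochondrial DNA, fell by 0.66 ± 0.07 in *jumu* loss-of-function (FDR = 1.85e-07) and by 0.92 ± 0.10 in double loss-of-function (FDR = 4.02e-05). In each it was the only 1 of the 5 DNA-maintenance genes tested that was called. In *jumu* loss-of-function 0 of 16 RNA-processing and 0 of 13 biogenesis genes were called by edgeR (8 and 10 at an unadjusted p below 0.05). In double loss-of-function 2 of 66 subunits were called, 1 in each direction, against 11.9% of all genes called higher and 12.8% lower. There *porin*, the outer-membrane channel, rose by 0.62 ± 0.1 (FDR = 0.000656) and *sun*, a subunit of ATP synthase, by 0.69 ± 0.13 (FDR = 0.00312), whereas *ND-B16.6* fell by 0.55 ± 0.15 (FDR = 0.0189) and *Lrpprc2*, of a family that stabilises mitochondrial mRNAs, by 0.90 ± 0.28 (FDR = 0.041). Of 16 RNA-processing genes tested in double loss-of-function, 2 were called lower and 1 higher, *mTerf3* (0.64 ± 0.11, FDR = 0.00136). Of 13 biogenesis genes 1 was called, *porin*. In *CHES-1-like* loss-of-function 0 of 66 subunits were called by edgeR (16 at an unadjusted p below 0.05) and 1 by DESeq2, against 6.24% of all genes called higher and 9.19% lower, and *PNPase*, the exonuclease of the mitochondrial degradosome, fell by 0.51 ± 0.09 (FDR = 0.000195). It was 1 of 2 RNA-processing genes called there, both lower, of 16 tested. For DNA maintenance and biogenesis 0 of 5 and 0 of 13 were called by edgeR (1 and 6 at an unadjusted p below 0.05). Without the libraries low in *mt:ND3* the counts of subunits called were again 1, 2 and 0 in *jumu*, double and *CHES-1-like* loss-of-function. These counts depended on scale in 2 genotypes: with library totals in place of TMM factors, 53 of the 66 subunits were called in the loss of *CHES-1-like* and 30 in double loss-of-function. In that setting the median gene tested itself lay at -0.56 and 0.34 on the log2 scale. The share of all genes called there is not given, so these 2 counts are not read as changes of the subunits. The counts of listed nuclear genes at an unadjusted p below 0.05 likewise have no share of all genes beside them, and nothing is drawn from them about the lists. Nuclear and mitochondrial genes were not tested against each other.

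**Figure D5:**
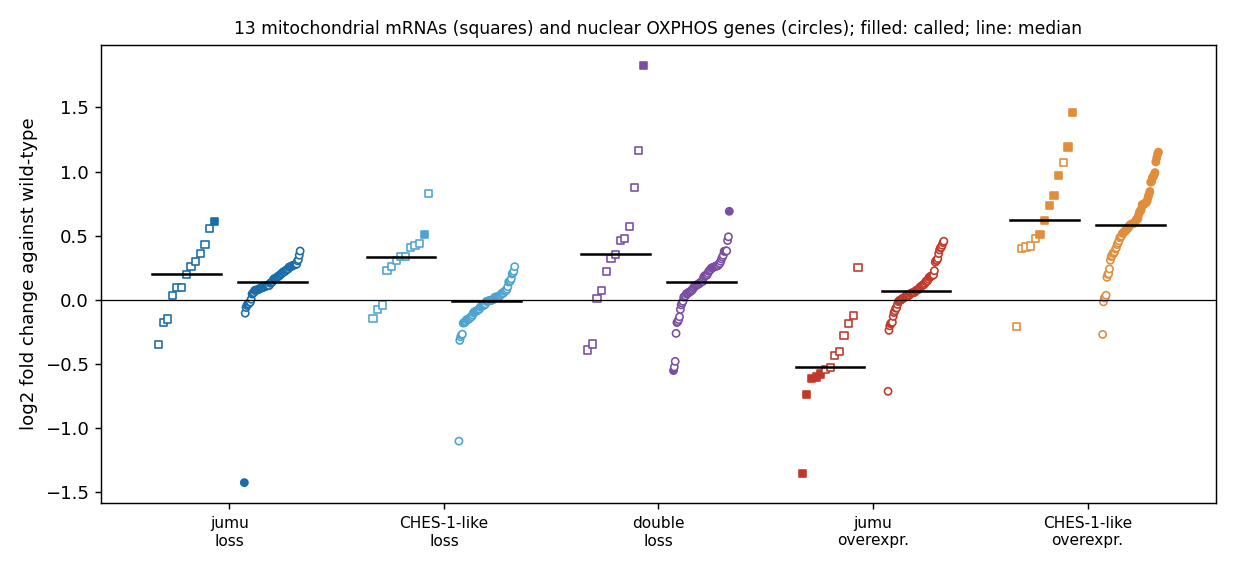
Log2 fold change against wild-type of the 13 mitochondrial mRNAs (squares) and of the 66 nuclear respiratory-complex genes tested (circles) in 5 genotypes; filled symbols were called, and lines are medians. In *CHES-1-like* overexpression the medians are 0.62 and 0.59, and in *jumu* overexpression -0.53 and 0.07.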

How the data were processed

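RNA-seq counts of 24 samples were analysed. The authors prepared stranded total RNA libraries and mapped reads with TopHat2 at default parameters to the FlyBase r6.05 annotation, as stated for 8 of the samples; the submitters' processing notes name SAMtools and HTSeq, without versions. The deposited values are whole-number counts per gene, with no normalization. Use of strand in counting is not given in the sources used here. Positions, lengths and gene classes came from the Release 6 annotation, version 6.54 (17199 of 17476 identifiers matched). Nuclear rRNA was the 136 rows annotated or named as rRNA; 47 rows with no annotated class were kept in totals.

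Each genotype was compared with wild-type on its 8 samples in R 4.3.3 with edgeR 4.0.16 (TMM factors, glmQLFit, glmQLFTest). Genes with at least 1 count were fitted; p-values were adjusted by Benjamini-Hochberg over all 17476 genes, and the 30% lowest in average log2 CPM were set aside. SEs were derived from the F statistics. Shares were compared by two-sided exact permutation. Named were all 13 mRNAs and 2 rRNAs, tRNAs that were called or among the 5 most abundant, and of each nuclear list the 2 most changed called genes with a mean of at least 1 CPM in each comparison, from which examples were taken. Of the listed nuclear genes, *mtTFB1*, *SLIRP1*, *PolG2*, *ND-MNLL* and *UQCR-14* are listed at 0 in every library. Members, lists and tests were chosen with earlier results of these data known. Simulated 2-fold changes in 200 of 12234 genes were recovered for 199 in the double loss-of-function comparison (6 others called) and for 190 in the interaction (13 others called). The simulated libraries all had the mean wild-type composition and 1 fixed dispersion, and the genes changed had ample expected counts. Composition differed between the real genotypes, so these numbers check the fitting and do not give the recovery or false calls in these data.

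The labels number the replicates in each genotype. Deviations of same-numbered *jumu* loss-of-function and wild-type libraries from their genotype means correlated at 0.117 to 0.354 in all 4 pairs, so the fit with a block is given beside that comparison; in each of the other 4 comparisons at least 2 pairs were at or below 0.1. All 36 pairs of replicates differed by more than sampling noise (chi-square per degree of freedom of 6.57 or more). Limits from counts cover counting error only; without molecular identifiers, reads are not independent molecules. Alternatives were RLE factors, library or nuclear totals, DESeq2 1.42.0, no filter, 1 fit of 24 samples, a replicate block and each library left out in turn. Nuclear protein-coding totals, a TMM-scaled denominator and removal of the 5 libraries low in *mt:ND3* were added after seeing the data.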

Additional observations from a re-analysis of the deposited data

Results flagged for a closer look

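Among 114 sets of 4 replicates examined for a library far from the other 3, 6 were found, close to the 5.7 that chance gives at 1 in 20. In 4 of the 6 the value belonged to a library low in *mt:ND3*. Of these values 1 was that of *mt:ND3* itself, by which the libraries were chosen, so this count is not independent of the choice. In double loss-of-function replicate 2, *mt:ATPase8* was at 12.8 CPM (1.27 to 1.53 CPM in the other replicates), *mt:ND4L* at 89.01 CPM (8.44 to 11.7 CPM) and *mt:ND3* at 11.2 CPM (138.5 to 186 CPM). In *CHES-1-like* overexpression replicate 1, *mt:ATPase8* was at 6.73 CPM (1.17 to 1.3 CPM). In *CHES-1-like* overexpression replicate 3, *mt:lrRNA* was at 40031 CPM (52232 to 54498 CPM). The total of *jumu* overexpression replicate 4 was 67831491 counts, above the other 3 libraries of its genotype. For *mt:srRNA* the jumu by CHES-1-like interaction was -1.72 on the log2 scale in the edgeR fit of 16 libraries (FDR = 0.0345). It was -1.52 and still called without the libraries low in *mt:ND3*, but 0 members were called with replicate 1 or replicate 3 of all genotypes left out.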

How the results depend on the processing

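In *jumu* loss-of-function the difference in mitochondrial share from wild-type (-0.12 percentage points) was 0.0993 without nuclear rRNA in the denominator, 1.25 per 100 nuclear protein-coding counts and 0.68 with TMM-scaled totals; in *CHES-1-like* loss-of-function (-0.66) it was 0.19, 4.12 and 2.08. With 1 library left out it ranged from -0.41 to 0.0945 in *jumu* loss-of-function and kept its sign in the other 4 genotypes. The rRNA share difference was 0.46 in *jumu* loss-of-function and 1.32 in *CHES-1-like* overexpression when *mt:lrRNA* was left out of the sum, so the lower share in *CHES-1-like* overexpression was not seen in *mt:srRNA*; leaving out 1 library gave -1.17 to 1.90 in the loss of *CHES-1-like* and -0.84 to 1.53 in *jumu* overexpression, and -0.17 to 0.80 for the minus-strand share in *jumu* overexpression. With 1 library left out, members called ranged from 0 to 5 in *jumu* loss-of-function, 0 to 12 in the loss of *CHES-1-like*, 0 to 3 in double loss-of-function, 3 to 17 in *jumu* overexpression, 2 to 16 in *CHES-1-like* overexpression and 0 to 6 in the interaction. With the libraries low in *mt:ND3* that each fit held left out, counts were 1, 0, 3, 17, 2 and 2 in the same order. In *jumu* loss-of-function 2 were called with no filter and 0 with nuclear protein-coding totals, nuclear totals or 1 fit of all 24 samples. In *CHES-1-like* loss-of-function 3 were called with nuclear protein-coding totals, 1 by DESeq2 and 0 in 1 fit of 24; in double loss-of-function 9 with library totals, 4 with nuclear totals and 0 by DESeq2; in *CHES-1-like* overexpression 5 by DESeq2 and 2 in 1 fit of 24; in the interaction 11 with library totals. *mt:tRNA:Q* in the loss of *CHES-1-like* ranged from -0.22 to 2.29 with 1 library left out. It was -0.22 without replicate 1, the library of that genotype low in *mt:ND3*. *mt:CoIII* there was -0.022 with library totals. The cause of these shifts was not tested. With library totals the median gene tested lay at -0.18, -0.56, 0.34, 0.04 and -0.05 in the 5 comparisons and at 1.08 in the interaction. Of 24 called gene results, 4 kept sign and call in every alternative: *mt:ATPase6* in *CHES-1-like* overexpression, and *mt:ND3*, *mt:ND4* and *mt:tRNA:K* in *jumu* overexpression.

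With the replicate number as a block, members called were 4 in *jumu* loss-of-function, 8 in *CHES-1-like* loss-of-function, 0 in double loss-of-function, 10 in *jumu* overexpression, 15 in *CHES-1-like* overexpression and 1 in the interaction. Samples of different genotypes shared only a replicate number in the labels, in *jumu* loss-of-function as in the others. The deposited columns are ordered by that number, and the labels name no batch. Of 24 samples 15 correlated best with their own number, a hint from the data and not the stated design. Low counts were a limit mainly for the tRNAs, of which 7 had at most 4 counts in any library, and their cause was not tested.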
